A study of Homo sapiens with 9 samples.

Results

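The SR and hnRNP splicing factor genes were read as 41 of the 19775 genes measured in U2OS, a human osteosarcoma cell line. They were chosen by symbol, with earlier results of these data known. The rule took genes named SRSF or HNRNP with a number or letter. TRA2A, TRA2B, SRRM1, SRRM2, PTBP1, PTBP2, RBFOX2, MBNL1, MBNL2, CELF1, ESRP1 and QKI were added, and pseudogenes were left out. Each gene was represented by its brightest probe set on average across the 9 arrays, and only probe sets assigned to a single symbol were used. The study compared 3 groups of 3 arrays. In the shControl group the cells had received a plasmid with a non-targeting hairpin, and in the shBAP1 #1 and shBAP1 #2 groups a plasmid with 1 of 2 hairpins against BAP1, the nuclear deubiquitinase that removes ubiquitin from histone H2A. Cells of all groups were transfected with a cationic lipid, selected in puromycin and held at the start of S phase by 2 rounds of thymidine, so the controls carry the vector, the selection and the block as well. No probe set was assigned to BAP1, and the loss of its transcript was not analysed here.

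SR proteins and hnRNPs are RNA-binding proteins that decide which splice sites the spliceosome uses. SR proteins bind exonic enhancers through RNA recognition motifs and recruit the core machinery through a domain rich in arginine and serine, whereas hnRNPs coat nascent transcripts and often repress the exons they bind. Many genes of both families also hold exons that send their own transcripts into nonsense-mediated decay, so that each protein limits its own supply.

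Values are log2 expression values, so a difference of -1 is a halving on this scale. Levels of different probe sets were set side by side only to call them bright or dim. That was done among the sets of a gene, against the median probe set and with a mean of 10 or more as a bound. Separate cultures are not mentioned for the 3 arrays of a group, and the p-values may reflect technical spread alone. Correlations over all probe sets were 0.995 to 0.997 between arrays of 1 group and 0.977 to 0.990 between arrays of different groups. VIM, SPARC and COL1A1 were among the 6 of 9 measured mesenchymal and bone markers above the median probe set, while COL1A2, ALPL and SP7 were below it. Of 8 measured epithelial markers 4 were below it, including CDH1 and the member ESRP1. EPCAM, CLDN4, KRT8 (mean 8.82) and KRT18 (mean 12.55) were above it. Of 5 haematopoietic markers 4 were below it. Of the 9 mesenchymal and bone markers, 5 were higher with shBAP1 #1, with FN1 at 1.81, RUNX2 at 1.20 and COL1A1 at 0.99, and 3 were higher with shBAP1 #2. Of the 8 epithelial markers, 4 were lower with shBAP1 #1 and 3 with shBAP1 #2. The signal of the actin control was 0.47 to 0.51 higher at its 3′ than at its 5′ end in the controls and 0.39 to 0.46 in the 6 shBAP1 arrays, whereas that of GAPDH was -0.06 to -0.02 in all 9. Among the shBAP1 arrays, shBAP1 #2 replicate 1 stood apart in the actin value, at 0.46 where the other 5 were at 0.39 to 0.41. Leaving it out gave 21 members lower and 2 higher for shBAP1 #2, counts equal to those with it. The members were not all the same, as QKI was then not called with shBAP1 #2 (limma adjusted p = 0.0654). For shBAP1 #1 leaving that array out gave 19 lower and 5 higher, where 16 and 4 were called with it. Shares over all genes are not given for this setting.

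More splicing factor genes were lower than higher in the cells that received a BAP1 hairpin, and 11 of them were lower with both hairpins. With shBAP1 #1, 16 of the 41 members were lower and 4 were higher than with shControl (limma, Benjamini-Hochberg adjusted p below 0.05 over 19775 genes), against a background of 12.6% of all genes lower and 13.0% higher. With shBAP1 #2, 21 members were lower and 2 were higher, against 16.5% lower and 16.9% higher among all genes. The members' shares were 39.0% and 9.76% with shBAP1 #1, and 51.2% and 4.88% with shBAP1 #2. Those lower with both were HNRNPA2B1, HNRNPD, HNRNPDL, HNRNPH1, HNRNPH3, MBNL1, PTBP2, QKI, SRSF1, SRSF6 and SRSF10, which is 26.8% of the members, where 5.49% of all genes were lower with both. None was higher with both, at the adjusted threshold or at an unadjusted p below 0.05 in each limma comparison (0 of 41), where 6.22% of all genes were called higher with both at the adjusted threshold. The 2 comparisons share the 3 control arrays. The count of 11 fell to 7 without shControl replicate 1 and to 7 without shControl replicate 2. It fell to 4 of 34 members with only probe sets that lack the suffixes _s_at and _x_at, which Affymetrix gives to sets whose probes match several transcripts. The brightest such set of each gene was read, and 7 members were lower and 5 higher with shBAP1 #1. The second hairpin had 12 lower and 5 higher. HNRNPH3 and SRSF6, both lower with both hairpins above, have no such set and dropped out. The sets left can be far dimmer, as for HNRNPDL (mean 6.87 against 11.09) and HNRNPD (8.26 against 12.18). The share over all genes is not given for this setting.

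The median change over the 41 members was -0.20 with shBAP1 #1 and -0.24 with shBAP1 #2, where the median over all genes was 0.01 and 0.02. Array by array, the members' median distance from the control mean was 0.03, -0.00 and -0.01 in the controls, -0.17, -0.19 and -0.16 with shBAP1 #1, and -0.23, -0.35 and -0.25 with shBAP1 #2. Every shBAP1 array was thus below every control array. For 17 single members all 6 shBAP1 arrays were below all 3 controls (41.5%, where 9.02% of all genes did so), and for 0 members were all 6 above (9.61% of all genes). Most members are highly expressed, and 27 of them had a mean of 10 or more, a bound chosen after the values were seen. Among all 1992 such genes, 22.5% were lower and 21.3% higher with shBAP1 #1, and among the 27 members 44.4% were lower and 11.1% higher. With shBAP1 #2 it was 26.3% lower and 30.3% higher among these genes, against 59.3% and 3.70% among the members. Lower with both were 8 of the 27 members (29.6%) and 8.43% of these genes, and higher with both 0 members and 11.7%. Between the hairpins 7 of the 27 were higher and 11 lower with shBAP1 #2, where 31.1% and 26.7% of these genes were.

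**Figure D1:**
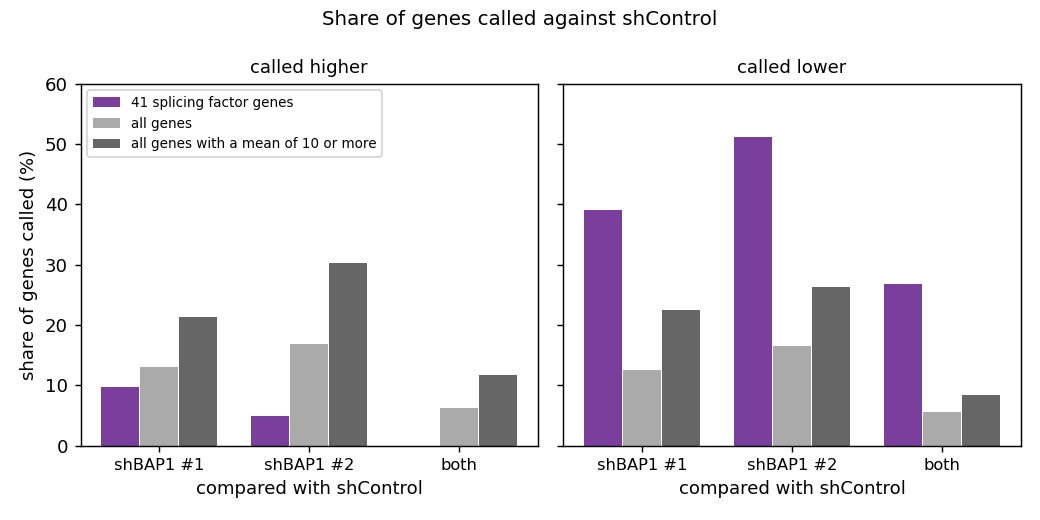
Share of genes called lower or higher (in %, adjusted p below 0.05) with each hairpin against shControl, for the splicing factor genes, all 19775 genes and all genes with a mean of 10 or more. Among the members 39.0% were lower with shBAP1 #1 and 51.2% with shBAP1 #2, and among all genes 12.6% and 16.5%.

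Genes of the cell cycle differed between the groups too. Of 15 S phase genes 9 were lower with shBAP1 #1 and 15 with shBAP1 #2. Of 15 mitosis genes the first hairpin had 3 lower and 1 higher, and the second 14 lower. The S phase genes' median distance from the control mean was -0.77 to -0.25 in the shBAP1 #1 arrays and -1.25 to -0.71 in the shBAP1 #2 arrays. For the mitosis genes it was -0.43 to -0.18 and -1.60 to -0.63, where the value of -0.63 is that of shBAP1 #2 replicate 1 and the other 2 arrays were at -1.60 and -1.47. The part of the cell cycle, of the mesenchymal and epithelial markers and of the actin value in the splicing factor results was not tested.

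**Figure D2:**
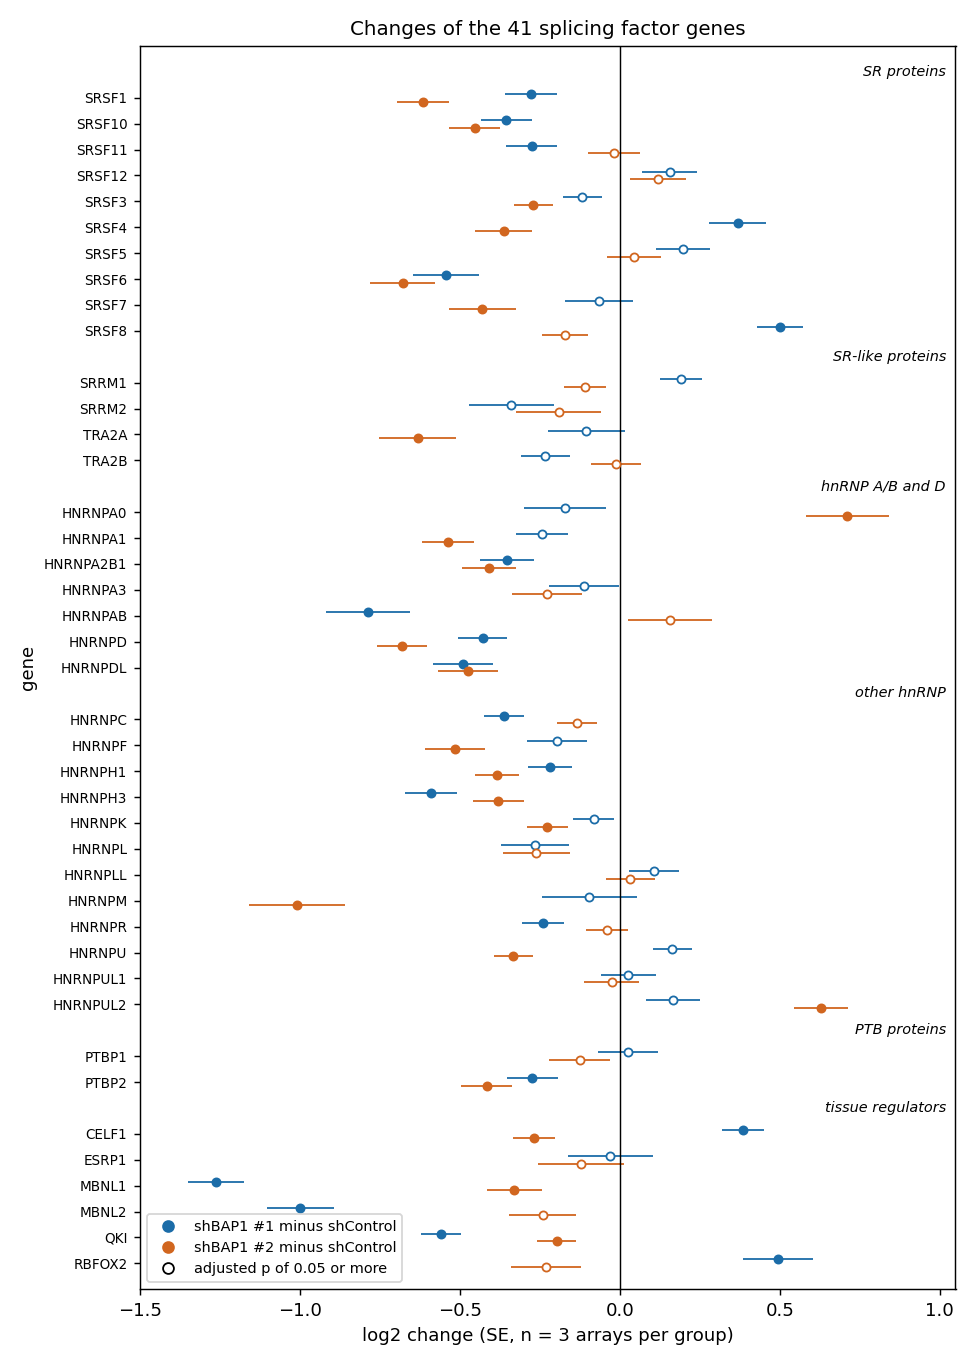
Change in log2 expression of each of the 41 splicing factor genes, shBAP1 #1 or shBAP1 #2 minus shControl, ordered by role, with bars for the standard error of the fit over 3 arrays a group. MBNL1 and MBNL2 lie farthest left with shBAP1 #1 (-1.26 and -1.0) and HNRNPM with shBAP1 #2 (-1.01).

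Among the 10 SR proteins, SRSF1, SRSF6 and SRSF10 were lower with both hairpins and SRSF4 moved in opposite directions. With shBAP1 #1, 4 of the 10 were lower and 2 higher, and with shBAP1 #2, 6 were lower and 0 higher, with median changes of -0.09 and -0.32. Among all genes 12.6% were lower and 13.0% higher with shBAP1 #1, and 16.5% and 16.9% with shBAP1 #2. Counts of the later subgroups are to be read against the same shares. SRSF1, the founding SR protein that binds purine-rich exonic enhancers, was at 12.59, 12.56 and 12.55 with shControl, at 12.21, 12.35 and 12.31 with shBAP1 #1 and at 12.11, 11.83 and 11.90 with shBAP1 #2. The 3 groups did not overlap, and the arrays of shBAP1 #2 were lowest. The change was -0.28 ± 0.0802 (SE, n = 3 a group) with shBAP1 #1 (limma adjusted p = 0.0269) and -0.62 ± 0.0802 with shBAP1 #2 (limma adjusted p = 0.0002), to 65.3% of the control level. The first of these calls was lost on leaving out any 1 of the 3 shControl arrays or shBAP1 #1 replicate 1 or 3, at adjusted p of 0.0522 to 0.106. With the mean of all its probe sets SRSF1 was at -0.05 and -0.19 (adjusted p = 0.719 and 0.0747), and with sets without the suffixes _s_at and _x_at it was higher, at 0.57 and 0.40.

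SRSF6, a regulator of exon inclusion in tau and lamin transcripts, was at 9.62, 9.45 and 9.77 with shControl, at 9.09, 8.93 and 9.19 with shBAP1 #1, and at 9.08, 8.87 and 8.85 with shBAP1 #2. All 6 shBAP1 arrays were below the controls, while the 2 hairpins overlapped each other. It fell by 0.54 ± 0.103 and by 0.68 ± 0.103 (limma adjusted p = 0.00273 and 0.000505). SRSF10, an SR protein that acts as a repressor when dephosphorylated, was at 10.89, 10.84 and 10.76, then 10.42, 10.59 and 10.41, then 10.49, 10.35 and 10.29, in the same order of groups. Here too the controls stood above the 6 other arrays, with changes of -0.35 and -0.45 (limma adjusted p = 0.0071 and 0.00122). With sets without the 2 suffixes SRSF10 was at 0.02 and -0.60, and only the second passed.

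SRSF4 was at 8.95, 8.96 and 8.96 with shControl, at 9.36, 9.32 and 9.30 with shBAP1 #1 and at 8.81, 8.45 and 8.51 with shBAP1 #2. The groups were fully apart, with the controls in the middle. Its change was 0.37 ± 0.0895 with shBAP1 #1 and -0.36 ± 0.0895 with shBAP1 #2 (limma adjusted p = 0.0111 and 0.00905), and the hairpins differed by -0.73 (limma adjusted p = 0.000109). SRSF4 read as the mean of its probe sets passed none of these tests, at 0.07, -0.04 and -0.11 (adjusted p = 0.696, 0.839 and 0.472). It was 1 of 2 members called in opposite directions, which is 4.88% of the members, where 3.44% of all genes were. SRSF8, a retrogene copy of SRSF2, was 0.50 higher with shBAP1 #1 (limma adjusted p = 0.000565) and -0.17 from the control with shBAP1 #2 (limma adjusted p = 0.104). SRSF3 and SRSF7, the small SR proteins that also couple splicing to mRNA export, were lower with shBAP1 #2, by -0.27 and -0.43, and their changes with shBAP1 #1 were -0.12 and -0.07 (limma adjusted p = 0.21 and 0.749). The SRSF7 change was -0.24 with the mean of its sets (adjusted p = 0.0545). SRSF11 was lower with shBAP1 #1 only by the call, at -0.28 against -0.02 with shBAP1 #2, and its first call was lost without any 1 of the 3 shControl arrays or shBAP1 #1 replicate 1 or 3 (adjusted p of 0.0567 to 0.113) and with the mean of its sets (adjusted p = 0.161). SRSF5 (0.20 and 0.05) and SRSF12 (0.16 and 0.12), the latter dimmer than the median probe set, passed neither test.

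Of the 4 SR-like genes 1 changed. TRA2A, a homologue of the fly sex determination factor Transformer-2 that binds GAA-rich enhancers, was at 9.90, 9.97 and 9.70 with shControl, at 9.86, 9.89 and 9.51 with shBAP1 #1, and at 9.08, 9.21 and 9.38 with shBAP1 #2. The shBAP1 #1 arrays overlapped the controls and the shBAP1 #2 arrays lay below both. The change with shBAP1 #2 was -0.63 ± 0.119 (limma adjusted p = 0.00198), and with shBAP1 #1 it was -0.10 (limma adjusted p = 0.627). TRA2B, its paralogue, was -0.23 from the control with shBAP1 #1 (limma adjusted p = 0.0511) and -0.01 with shBAP1 #2 (limma adjusted p = 0.939). The coactivators SRRM1 and SRRM2, large RS-domain proteins without a classical RNA recognition motif, passed in neither comparison, with 0.19 and -0.34 for shBAP1 #1 and -0.11 and -0.19 for shBAP1 #2. With the replicate number as a block SRRM2 passed with shBAP1 #1 (adjusted p = 0.00784).

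In the hnRNP A/B and D group, 4 of 7 genes were lower with shBAP1 #1, and the other hairpin had 4 lower and 1 higher, with median changes of -0.35 and -0.41. Among all genes 12.6% and 16.5% were lower, and 13.0% and 16.9% higher. The genes of this group lower with both were HNRNPA2B1, HNRNPD and HNRNPDL. HNRNPD and HNRNPDL lie near each other on chromosome 4 and encode closely related proteins, of which the first, AUF1, binds AU-rich elements and promotes mRNA decay. HNRNPD, HNRNPDL and HNRNPH3 were lower with both hairpins and hold the same E-box. MBNL1, the most lowered member with shBAP1 #1, holds none of the motifs searched. That lack is not particular to MBNL1. HNRNPH1, PTBP2, SRSF1, SRSF6 and SRSF10, also lower with both, hold none either, while HNRNPA2B1 holds a CCAAT box. Members not lower with both, such as CELF1, HNRNPK and MBNL2, also hold none. The promoter windows of HNRNPD, HNRNPDL, HNRNPH3 and MBNL1 were chosen by these calls and matches. They are the 250 bases before the annotated start in RefSeq (GRCh38.p14), 5′ to 3′ on the strand of the gene, at chr4:82373992-82374241 (minus strand) for HNRNPD, chr4:82430226-82430475 (minus strand) for HNRNPDL, chr10:68331443-68331692 (plus strand) for HNRNPH3 and chr3:152268679-152268928 (plus strand) for MBNL1. Capitals mark a match to any of the motifs on either strand.
HNRNPD: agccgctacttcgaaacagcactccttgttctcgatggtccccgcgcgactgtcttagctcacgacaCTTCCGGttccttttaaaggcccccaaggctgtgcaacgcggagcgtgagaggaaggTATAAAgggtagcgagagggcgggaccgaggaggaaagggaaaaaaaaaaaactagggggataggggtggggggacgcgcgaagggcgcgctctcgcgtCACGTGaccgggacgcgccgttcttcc
HNRNPDL: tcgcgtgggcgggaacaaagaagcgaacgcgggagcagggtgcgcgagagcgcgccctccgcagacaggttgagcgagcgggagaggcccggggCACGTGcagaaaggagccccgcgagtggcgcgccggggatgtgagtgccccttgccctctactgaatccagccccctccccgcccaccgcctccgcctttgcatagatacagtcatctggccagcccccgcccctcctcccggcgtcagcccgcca
HNRNPH3: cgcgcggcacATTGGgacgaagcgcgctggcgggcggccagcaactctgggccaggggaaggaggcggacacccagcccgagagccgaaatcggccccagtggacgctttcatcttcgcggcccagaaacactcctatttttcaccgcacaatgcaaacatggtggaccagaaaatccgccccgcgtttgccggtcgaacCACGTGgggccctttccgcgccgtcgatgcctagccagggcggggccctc
MBNL1: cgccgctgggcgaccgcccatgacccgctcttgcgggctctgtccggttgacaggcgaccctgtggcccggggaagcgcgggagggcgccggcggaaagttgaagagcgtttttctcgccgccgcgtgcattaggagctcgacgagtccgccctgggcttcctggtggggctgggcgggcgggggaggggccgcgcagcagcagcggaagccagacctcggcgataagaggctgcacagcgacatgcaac

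The motifs were searched on both strands and were the E-box CACGTG, the CCAAT box, the YY1 motif AANATGGC, the E2F motifs TTTCGCGC and TTTGGCGC, the ETS motif CCGGAAG and the TATA box TATAAA. Of the 41 members 36 have a promoter entry, and 1 pair of matches in them overlapped. The E-box was in 5 of the 36 (13.9%), HNRNPA3, HNRNPD, HNRNPDL, HNRNPH3 and HNRNPM, and in 6.49% of the 27303 promoters. It was in 3 of the 10 members with an entry that were lower with both hairpins. CCAAT was in 16 members (44.4%) and in 33.0% of all promoters, and in 2 of those 10. The YY1 motif was in 1 member and in 3.91% of all promoters, the E2F motifs in 0 members and in 0.996%, the ETS motif in 5 members and in 8.82%, and the TATA box in 5 members and in 11.1%. A match describes these letters and is not a measured binding site.

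HNRNPD was at 12.59, 12.50 and 12.56 with shControl, at 12.08, 12.05 and 12.23 with shBAP1 #1, and at 11.99, 11.78 and 11.84 with shBAP1 #2. The 3 groups did not overlap. It fell by 0.43 ± 0.0777 and by 0.68 ± 0.0777 (limma adjusted p = 0.00211 and 9.12e-05). With sets without the suffixes _s_at and _x_at HNRNPD was at -0.07 and -0.26 and passed neither test (adjusted p = 0.797 and 0.142). HNRNPDL was at 11.28, 11.47 and 11.47, then 10.74, 11.04 and 10.97, then 11.03, 10.83 and 10.94, so that both hairpins were below the controls and overlapped each other. Its changes were -0.49 and -0.47 (limma adjusted p = 0.00308 and 0.00275), and the difference between the hairpins was 0.02 (limma adjusted p = 0.925). With sets without the suffixes HNRNPDL was at 0.04 and 0.89 (adjusted p = 0.806 and 1.93e-05). HNRNPA2B1, a reader of m6A-marked and microRNA precursor transcripts, was at 12.85, 12.68 and 12.71, then 12.33, 12.41 and 12.45, then 12.48, 12.20 and 12.34. The controls were again above all 6, with changes of -0.35 and -0.41 (limma adjusted p = 0.0105 and 0.00342). With sets without the suffixes HNRNPA2B1 was at 0.56 and -0.72, and with the mean of its sets at 0.06 and -0.23.

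HNRNPAB and HNRNPA0 set the 2 hairpins apart. HNRNPAB was at 11.98, 11.73 and 12.09 with shControl, at 10.91, 11.12 and 11.41 with shBAP1 #1, and at 12.24, 12.02 and 12.01 with shBAP1 #2. All shBAP1 #1 arrays were below the controls and the shBAP1 #2 arrays overlapped them. The change with shBAP1 #1 was -0.79 ± 0.132 (limma adjusted p = 0.00135), to 58.0% of the control level, whereas shBAP1 #2 gave 0.16 (limma adjusted p = 0.432). HNRNPA0, which binds AU-rich elements of cytokine transcripts, was at 10.23, 10.01 and 10.43, then 9.93, 9.90 and 10.33, then 10.95, 10.95 and 10.91. Here the shBAP1 #2 arrays stood above the other 6, at 0.71 ± 0.128 (limma adjusted p = 0.00148), and shBAP1 #1 overlapped the controls at -0.17 (limma adjusted p = 0.413). HNRNPA1, the most studied antagonist of SR proteins at splice sites, was lower with shBAP1 #2 (-0.54, limma adjusted p = 0.00052) and at -0.24 with shBAP1 #1 (limma adjusted p = 0.0525). The HNRNPA1 change with shBAP1 #2 was -0.23 with sets without the suffixes (adjusted p = 0.228). HNRNPA3 passed neither test (-0.11 and -0.23). Its set 211932_at, at a mean of 8.87 against 9.25, was picked after its values were seen. It was lower with both hairpins, at -0.47 and -0.66 (limma adjusted p = 0.0101 and 0.000991 over all 54675 probe sets).

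Among the 12 other hnRNPs, 4 were lower with shBAP1 #1, and the other hairpin had 6 lower and 1 higher, with median changes of -0.15 and -0.24. Among all genes 12.6% and 16.5% were lower, and 13.0% and 16.9% higher. HNRNPH1 and HNRNPH3, which bind G-rich tracts, were lower with both. HNRNPH3 was at 10.63, 10.64 and 10.72 with shControl, at 10.04, 10.05 and 10.13 with shBAP1 #1 and at 10.43, 10.13 and 10.28 with shBAP1 #2. All 6 shBAP1 arrays were below the controls, with changes of -0.59 ± 0.0807 and -0.38 ± 0.0807 (limma adjusted p = 0.000365 and 0.00392). HNRNPH1 was at 13.00, 13.02 and 12.89, then 12.79, 12.71 and 12.76, then 12.68, 12.52 and 12.55, with no overlap between groups. Its change was -0.38 with shBAP1 #2 (limma adjusted p = 0.00154) and -0.22 with shBAP1 #1 (limma adjusted p = 0.0419). The latter call was lost without shControl replicate 1 or 2, any 1 of the 3 shBAP1 #1 arrays or shBAP1 #2 replicate 3, at adjusted p of 0.0541 to 0.129.

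HNRNPM, which promotes exon skipping and binds GU-rich sequence, had the largest change of any member with shBAP1 #2. It was at 11.94, 11.84 and 11.85 with shControl, at 11.79, 11.69 and 11.87 with shBAP1 #1, and at 11.30, 10.63 and 10.68 with shBAP1 #2. The shBAP1 #1 arrays lay within or just under the control range and the shBAP1 #2 arrays well below it. The change was -1.01 ± 0.149 (limma adjusted p = 0.000435), to 49.7% of the control level, against -0.09 (limma adjusted p = 0.741) with shBAP1 #1. Without shBAP1 #2 replicate 1, the highest of its group, the HNRNPM change was -1.22. It was -0.26 with the mean of its probe sets (adjusted p = 0.00528) and 0.02 with sets without the suffixes _s_at and _x_at (adjusted p = 0.929). The set read there, 214918_at, is the brightest without these suffixes and had a mean of 5.34, below the median probe set of 5.44. The mean of the sets takes in others as dim as 3.58. The second brightest set, 1555844_s_at (mean 11.39), gave -1.04 with shBAP1 #2 (limma adjusted p = 0.000587 over all 54675 probe sets). HNRNPUL2, a relative of the scaffold protein HNRNPU that acts in the DNA damage response, was at 7.23, 7.42 and 7.09, then 7.40, 7.37 and 7.47, then 7.89, 7.85 and 7.90. Only shBAP1 #2 stood above the controls in all 3 arrays, at 0.63 ± 0.0841 (limma adjusted p = 0.000233), and shBAP1 #1 overlapped them at 0.17 (limma adjusted p = 0.199).

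HNRNPU itself was -0.33 from the control with shBAP1 #2 (limma adjusted p = 0.00158) and 0.16 with shBAP1 #1 (limma adjusted p = 0.0757). The HNRNPU change with shBAP1 #2 was -0.07 with the mean of its sets and 0.28 with sets without the suffixes, and passed in neither. HNRNPF, a G-tract binder like HNRNPH1, and HNRNPK, which binds C-rich sequence, were lower with shBAP1 #2 by -0.52 and -0.23 (limma adjusted p = 0.00157 and 0.018). With shBAP1 #1 their changes were -0.20 and -0.08 (limma adjusted p = 0.172 and 0.435). The HNRNPK call was lost without shControl replicate 1 or shBAP1 #2 replicate 2, at adjusted p of 0.0603 and 0.0631, and with the mean of its sets, at -0.02. HNRNPC, which measures transcript length and shields cryptic exons in Alu repeats, and HNRNPR were lower with shBAP1 #1 by -0.36 and -0.24 (limma adjusted p = 0.00141 and 0.02), and at -0.13 and -0.04 with shBAP1 #2. With sets without the suffixes HNRNPC was at -0.03 with shBAP1 #1 (adjusted p = 0.933). The HNRNPR call was lost without shControl replicate 1 or 2 or shBAP1 #1 replicate 1 or 2 (adjusted p of 0.0504 to 0.0840). With the mean of its sets the HNRNPR change with shBAP1 #1 was -0.35 (adjusted p = 0.000987). HNRNPL (-0.27 and -0.26), HNRNPLL (0.11 and 0.03) and HNRNPUL1 (0.03 and -0.03) passed neither test. Other sets, picked after their values were seen, did pass in the fit over all 54675 probe sets. For HNRNPLL the dimmer 1554453_at was lower with both, at -1.06 and -0.47, and 225385_s_at was higher with shBAP1 #2, at 0.43. For HNRNPL the set 202072_at was lower with shBAP1 #1, at -0.36 (limma adjusted p = 0.0249), and at -0.27 with shBAP1 #2 (limma adjusted p = 0.0717). With the replicate number as a block HNRNPL passed with shBAP1 #1 (adjusted p = 0.0285).

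**Figure D3:**
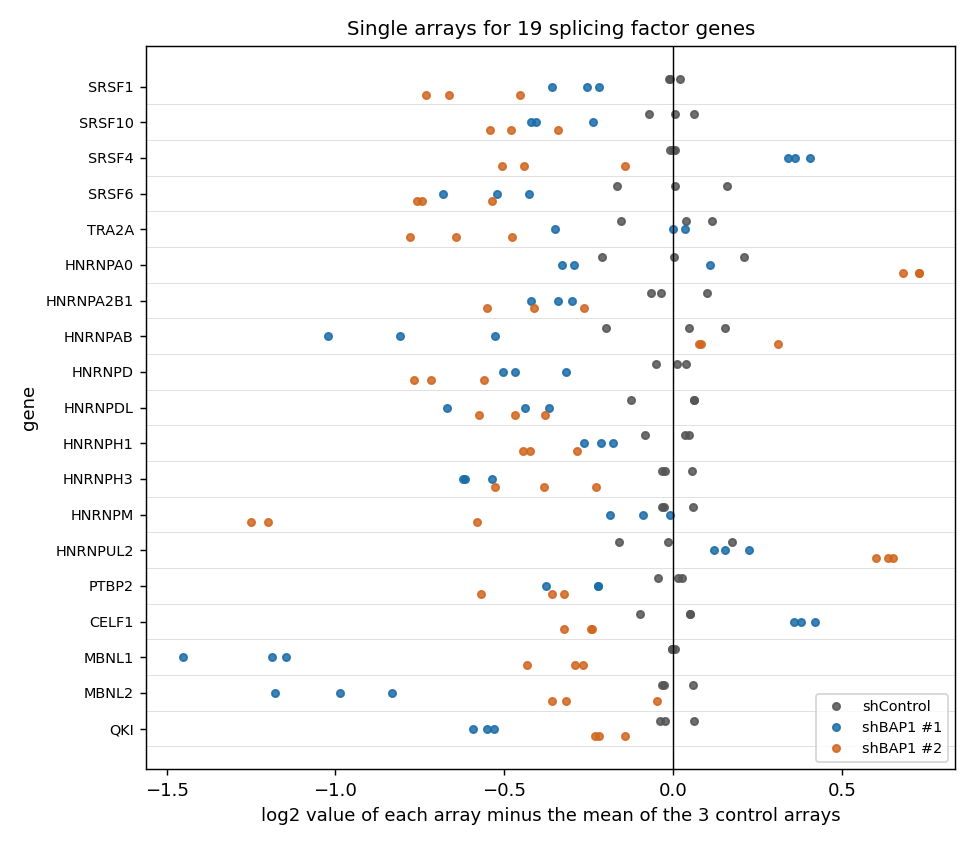
log2 expression minus the control mean in each of the 9 arrays, for the 19 splicing factor genes described array by array, with 1 point an array and colours for shControl, shBAP1 #1 and shBAP1 #2. For MBNL1 the shBAP1 #1 arrays lie apart from all others, and for HNRNPM the shBAP1 #2 arrays do.

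Of the 2 polypyrimidine tract binding proteins, PTBP2, the neuronal form, was lower with both hairpins. It was at 8.46, 8.47 and 8.40 with shControl, at 8.06, 8.22 and 8.22 with shBAP1 #1, and at 7.87, 8.08 and 8.12 with shBAP1 #2. The controls were above the 6 other arrays, with changes of -0.27 and -0.42 (limma adjusted p = 0.0285 and 0.00223). The call for shBAP1 #1 was lost without shControl replicate 1 or 2 or shBAP1 #1 replicate 1, at adjusted p of 0.0819 to 0.116. PTBP1, the repressor found in most dividing cells, was at 0.03 and -0.13 from the control (limma adjusted p = 0.9 and 0.373).

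The 6 regulators best known for tissue-specific programmes held the 2 largest changes of any member with shBAP1 #1. With that hairpin 3 were lower and 2 higher, and with shBAP1 #2 there were 3 lower and 0 higher. Among all genes 12.6% and 16.5% were lower, and 13.0% and 16.9% higher. MBNL1, a muscleblind protein that drives the shift from foetal to adult exons and is sequestered in myotonic dystrophy, was at 10.27, 10.26 and 10.26 with shControl. It was at 8.82, 9.12 and 9.08 with shBAP1 #1 and at 10.00, 9.83 and 9.98 with shBAP1 #2. The groups did not overlap and shBAP1 #1 was by far the lowest. The change was -1.26 ± 0.0868 (limma adjusted p = 9.77e-06), to 41.7% of the control level, and -0.33 ± 0.0868 with shBAP1 #2 (limma adjusted p = 0.0132). The latter call was lost without shBAP1 #2 replicate 2 (adjusted p = 0.0574). MBNL2, its paralogue, was at 8.29, 8.20 and 8.20, then 7.25, 7.40 and 7.05, then 7.91, 7.87 and 8.18. Its shBAP1 #1 arrays were far below the rest, at -1.0 ± 0.104 (limma adjusted p = 7.28e-05), and shBAP1 #2 gave -0.24 (limma adjusted p = 0.108). With the mean of their probe sets the shBAP1 #1 changes were -0.78 for MBNL1 and -0.33 for MBNL2, and both passed.

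QKI, a STAR-family protein that controls splicing and circular RNA formation in glia and mesenchymal cells, was at 11.22, 11.32 and 11.23 with shControl. It was at 10.66, 10.72 and 10.70 with shBAP1 #1 and at 11.03, 11.04 and 11.11 with shBAP1 #2, again without overlap. The changes were -0.56 ± 0.0618 and -0.20 ± 0.0618 (limma adjusted p = 9.87e-05 and 0.0304), and the second call was lost without any 1 of the 3 shControl arrays or shBAP1 #2 replicate 1 or 2 (adjusted p of 0.0508 to 0.103). CELF1, a GU-rich element binder that opposes MBNL proteins at many exons, was at 11.11, 11.11 and 10.96, then 11.42, 11.44 and 11.48, then 10.82, 10.74 and 10.82. It was higher than the controls in all shBAP1 #1 arrays and lower in all shBAP1 #2 arrays, with changes of 0.39 ± 0.0659 and -0.27 ± 0.0659 (limma adjusted p = 0.00148 and 0.0088). CELF1 read as the mean of its sets was at 0.32 and 0.18, higher with both. RBFOX2, which binds GCATG and promotes mesenchymal exons, was 0.49 higher with shBAP1 #1 (limma adjusted p = 0.00696) and at -0.23 with shBAP1 #2 (limma adjusted p = 0.145). The brightest RBFOX2 set without the suffixes _s_at and _x_at gave 0.08 with shBAP1 #1 (adjusted p = 0.607). ESRP1, the epithelial regulator that acts against it, was at 3.65 to 4.24 in the 9 arrays, below the median probe set of 5.44, with changes of -0.03 and -0.12.

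Compared directly, the hairpins differed for 23 of the 41 members. Of these 10 were higher with shBAP1 #2 than with shBAP1 #1 and 13 lower (24.4% and 31.7%), against 17.1% and 17.6% of all genes (limma adjusted p below 0.05). Differences on the higher side were 0.94 for HNRNPAB, 0.93 for MBNL1, 0.88 for HNRNPA0, 0.76 for MBNL2 and 0.46 for HNRNPUL2. On the lower side they were -0.92 for HNRNPM, -0.73 for both SRSF4 and RBFOX2, -0.67 for SRSF8, -0.66 for CELF1 and -0.53 for TRA2A. With the mean of all probe sets of a gene, the differences of MBNL2 (0.16), SRSF4 (-0.11), CELF1 (-0.14), TRA2A (-0.34), SRSF1 (-0.14) and HNRNPD (-0.02) did not pass. Those of HNRNPC (0.09), HNRNPU (turned to 0.09), SRSF7 (-0.02) and TRA2B (0.04) did not pass either. Adjusted p over all these genes was 0.0530 to 0.920. Of the 11 genes lower with both hairpins, MBNL1 and QKI were lower with shBAP1 #1 than with shBAP1 #2, SRSF1 and HNRNPD were lower with shBAP1 #2, and the other 7 did not pass this test. The HNRNPD difference of -0.25 was lost without shBAP1 #1 replicate 1 or 3 or shBAP1 #2 replicate 2 or 3, at adjusted p of 0.0507 to 0.103. For 5 members the call was lower with shBAP1 #1 and absent with shBAP1 #2, and for 8 the reverse. Calls with 1 hairpin only were common among all genes too. There 12.6% were lower with shBAP1 #1 and 16.5% with shBAP1 #2, but 5.49% with both. A call present with 1 hairpin and absent with the other is no test of their difference.

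The result for a gene also depended on which of its probe sets was read. The 41 members have 171 probe sets, up to 10 for QKI, and only HNRNPAB and HNRNPF have 1. In a fit over all 54675 probe sets, 53 of the 171 were lower and 15 higher with shBAP1 #1 (background 8.76% and 8.98%), and 57 were lower and 14 higher with shBAP1 #2 (background 11.5% and 12.6%). Between the hairpins 34 were higher and 31 lower with shBAP1 #2 (background 13.0% and 12.4%). Of the 39 members with 2 or more probe sets, 3 had sets called in opposite directions with shBAP1 #1 (HNRNPA2B1, HNRNPC and SRSF1), which was so for 1.42% of all 10523 such genes. With shBAP1 #2 there were 5 (CELF1, HNRNPA2B1, HNRNPDL, HNRNPLL and SRSF1), against 2.21%, and in the comparison of hairpins 7 (CELF1, HNRNPC, HNRNPU, MBNL2, QKI, SRSF10 and SRSF3), against 3.01%. Members with many probe sets have more chances of such a pair.

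The probe sets in this paragraph were picked after their values were seen, and their p-values are limma's, adjusted over all 54675. The 4 brightest sets of MBNL1 were all lower with both hairpins, at -1.20 to -1.40 and -0.25 to -0.50. For SRSF1 the 3 brightest sets changed by -0.62, -0.46 and -0.64 with shBAP1 #2, while 227164_at was higher with both hairpins, by 0.57 and 0.40 (adjusted p = 0.0011 and 0.0072). For SRSF3 the set 208673_s_at fell by 1.20 with shBAP1 #1, where the brightest set gave -0.12. For HNRNPK the set 200097_s_at fell by 0.92 with shBAP1 #1, against -0.08 for 200775_s_at, the set used above. For HNRNPA2B1 the set 225107_at was 0.56 higher with shBAP1 #1 and fell by 0.72 with shBAP1 #2. For HNRNPDL the set 209068_at was 0.89 higher with shBAP1 #2, opposite to the brightest set. For CELF1 the sets 209489_at (0.87 and 0.53) and 1555467_a_at (0.41 and 0.38) were higher with both hairpins, so that its opposite calls rest on the brightest set. Where a gene's sets differ, its direction holds for the named set only, and the cause was not tested. Of the sets used for the members, 19 carry the suffix _s_at and 8 the suffix _x_at, so that the signal of close copies cannot be told apart there.

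**Figure D4:**
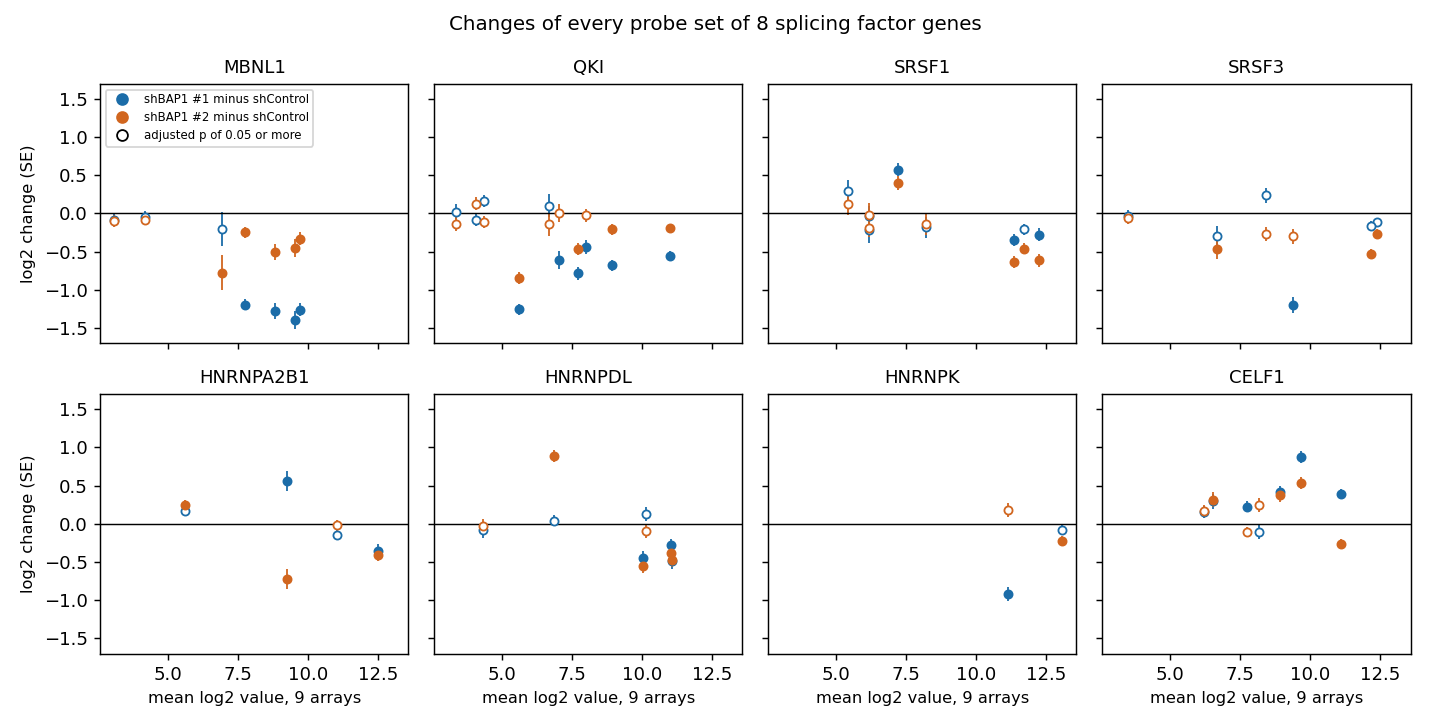
Change in log2 expression of each probe set of 8 splicing factor genes, shBAP1 #1 and shBAP1 #2 minus shControl, against the mean log2 value of the set, with bars for the standard error and open points at an adjusted p of 0.05 or more. The 4 brightest MBNL1 sets lie together below 0, while SRSF1, HNRNPA2B1, HNRNPDL and CELF1 each have sets on both sides of 0.

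Other genes of the splicing pathway were called on both sides, and their counts are to be read against 12.6% lower and 13.0% higher among all genes with shBAP1 #1 and 16.5% and 16.9% with shBAP1 #2. Of 14 U1 and Sm genes 3 were lower and 0 higher with shBAP1 #1, and 3 lower and 1 higher with shBAP1 #2, and LUC7L2, a U1-associated factor that shapes 5′ splice site choice, was lower with both (-0.77 and -0.35). Of 19 U2 genes 5 were lower and 2 higher with shBAP1 #1, and 6 lower and 3 higher with shBAP1 #2, with the helicase gene DDX46 lower with both (-0.94 and -0.52). Of 21 tri-snRNP genes 6 were lower and 3 higher, then 7 lower and 6 higher. There PRPF4 (-0.76 and -0.96) and LSM6 (-0.55 and -1.59) were lower with both and SNRNP27 higher (0.67 and 0.62). Of 20 genes of the Prp19 complex and catalytic steps 3 were lower and 2 higher, then 2 lower and 4 higher, and CDC5L, a core Prp19 subunit, was lower by -1.72 and -0.62, while PRPF18 was higher by 0.30 and 0.53 and CTNNBL1 by 0.26 and 0.31.

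Of 10 kinases and carriers of SR proteins 1 was lower and 1 higher with shBAP1 #1, and with the other hairpin 4 were lower and 0 higher. CLK2, which phosphorylates SR proteins in the nucleus, was lower with both (-0.31 and -0.54). Of 32 other splicing regulators 6 were lower and 7 higher, then 14 lower and 5 higher, with CELF2, a paralogue of CELF1, higher with both (0.72 and 1.38) and TAF15 (-0.60 and -0.79) and RBFOX3 (-0.79 and -0.97) lower. Of 11 genes of nonsense-mediated decay 2 were lower and 1 higher, then 2 lower and 3 higher, and EIF4A3, the exon junction complex helicase, was higher with both (1.03 and 0.81). Median changes of these 7 lists lay between -0.14 and 0.04 with shBAP1 #1 and between -0.18 and -0.03 with shBAP1 #2. The shBAP1 #1 calls of LSM6, CLK2, TAF15, RBFOX3 and CTNNBL1 were each lost on leaving out any of 3 to 6 single arrays of shControl or shBAP1 #1, at adjusted p of 0.0513 to 0.109.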

How the data were processed

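Expression was measured on 9 Affymetrix arrays of U2OS cells, 3 each of shControl, shBAP1 #1 and shBAP1 #2. The deposited values are on the log2 scale for 54675 probe sets and were made by the authors with RMA, per the submitters' processing notes, and the version is not given in the sources used here. RMA forces the arrays to 1 distribution, so a shift of most genes would not show; array medians were 5.40 to 5.45. Genes were named from GEO's platform annotation: 41097 probe sets had 1 symbol, 1801 had several and 11777 were not listed. All 41 members matched the gene table by gene ID. The fit used 1 probe set a gene (the highest mean), all 3 groups and no covariate, in limma 3.58.1 (R 4.3.3), with 6 residual and 4.33 prior degrees of freedom and Benjamini-Hochberg adjustment over 19775 genes. A call is an adjusted p below 0.05 with no minimum change, and the number of arrays limits the precision. The fit was tested on simulated data. Arrays of the same replicate number deviated together between shControl and shBAP1 #1 (r = 0.113 to 0.216, 3 of 3 pairs above 0.1). Arrays of different numbers were at -0.220 to 0.0390 there. The numbers may thus pair these, as read from the data and not from the labels. Arrays of the same number did not deviate together between shControl and shBAP1 #2 (-0.105 to 0.181) or between the hairpins (-0.210 to 0.0381). In these 2 comparisons arrays of different numbers reached 0.179 and 0.236, so a pairing is not settled. Members given array by array were those called the same way or in opposite ways by both hairpins and the 6 with the largest change in each of 3 comparisons; of the other lists, up to 3 genes called the same way by both. The members and lists were chosen with earlier results of these data known. Alternatives were a replicate block, the mean of a gene's probe sets, sets without the suffix _s_at or _x_at, dim sets left out, cyclic loess, array medians subtracted, eBayes with trend and robust, only the groups compared, and each array left out. Figures were drawn with matplotlib 3.10.9.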

Additional observations from a re-analysis of the deposited data

Results flagged for a closer look

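For 23 members the effect of shBAP1 #2 differed from that of shBAP1 #1 (limma, adjusted p below 0.05). The differences on the log2 scale, shBAP1 #2 minus shBAP1 #1, were positive for HNRNPAB (0.94), MBNL1 (0.93), HNRNPA0 (0.88), MBNL2 (0.76), HNRNPUL2 (0.46), QKI (0.36), SRSF11 (0.26), HNRNPC (0.23), TRA2B (0.22) and HNRNPR (0.20). They were negative for HNRNPM (-0.92), RBFOX2 (-0.73), SRSF4 (-0.73), SRSF8 (-0.67), CELF1 (-0.66), TRA2A (-0.53), HNRNPU (-0.50), SRSF7 (-0.36), SRSF1 (-0.34), HNRNPF (-0.32), SRRM1 (-0.30), HNRNPA1 (-0.29) and HNRNPD (-0.25). The calls of TRA2B, HNRNPR, HNRNPD, SRSF7, HNRNPF, SRSF11, HNRNPA1 and HNRNPC were lost on leaving out at least 1 single array, with adjusted p of up to 0.168 for TRA2B. Groups of 3 arrays were too small for the test of a single outlying array.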

How the results depend on the processing

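More members were lower than higher with each hairpin under every alternative run. With only probe sets without the suffix _s_at or _x_at, which keep 34 members, 7 were lower and 5 higher with shBAP1 #1, 12 lower and 5 higher with shBAP1 #2, 4 lower and 1 higher with both, and 7 lower with shBAP1 #2 than with shBAP1 #1. With the mean of all probe sets 8 were lower with shBAP1 #2 than with shBAP1 #1 and 1 was higher with both. Shares over all genes are not given for these settings. Directions turned with sets without these suffixes for HNRNPA2B1 (0.56 with shBAP1 #1), HNRNPDL (0.041 and 0.89 with shBAP1 #1 and #2), HNRNPM (0.023 and 0.017), HNRNPU (0.28 with shBAP1 #2 and 0.87 between hairpins), RBFOX2 (0.075 between hairpins), SRSF1 (0.57 and 0.40), SRSF10 (0.020 with shBAP1 #1), DDX46 (0.032 with shBAP1 #2) and CDC5L (0.075 with shBAP1 #2). With the mean of all sets they turned for CELF1 (0.18 with shBAP1 #2), HNRNPA2B1 (0.060 with shBAP1 #1) and HNRNPU (0.089 between hairpins), and with cyclic loess for HNRNPDL between hairpins (-0.00506). The brightest HNRNPM set without these suffixes is dim, at a mean of 5.34. The cause of these turns was not tested.

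Leaving out each array gave 11 to 19 members lower and 4 to 5 higher with shBAP1 #1, 18 to 22 lower and 2 to 2 higher with shBAP1 #2, 10 to 15 lower and 7 to 10 higher between hairpins, and 7 to 11 lower and 0 to 1 higher with both. Over probe sets it gave 40 to 53 lower and 11 to 17 higher, 42 to 57 lower and 12 to 15 higher, and 22 to 33 lower and 30 to 35 higher. Single values that turned ranged from -0.073 to 0.078 (HNRNPDL between hairpins), -0.18 to 0.018 (TRA2A with shBAP1 #1), -0.13 to 0.016 (HNRNPA2B1 between hairpins) and -0.33 to 0.00016 (TAF15 between hairpins). With the replicate number as a block, 18 members were lower and 4 higher with shBAP1 #1, 22 lower and 2 higher with shBAP1 #2, 13 lower and 8 higher between hairpins, and 12 lower and 0 higher with both. Besides HNRNPL and SRRM2 with shBAP1 #1, the block moved the member calls of HNRNPL with shBAP1 #2 (adjusted p = 0.0244), HNRNPR between hairpins (0.0597) and TRA2B between hairpins (0.0669).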
